A study of Mus musculus with 2 samples.

Results

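The immunity-related GTPases described here were 6 mouse genes taken by symbol from both count matrices: Iigp1, Igtp, Irgm1, Irgm2, Tgtp1 and Tgtp2. All 6 were found among the 28692 genes listed. They were measured by 10x Chromium 3′ single-cell RNA sequencing in MC38 cells, a mouse colon carcinoma line grown as tumours, with the strain given as C57BL/6 albino. Tumour pieces of 40 to 100 µm were cultured ex vivo in collagen inside a microfluidic chip, and tumour cells were sorted on day 6. The control library received IgG (clone 2A3) and the treated library aPD-1 (clone RMP1-14), an antibody that blocks the inhibitory receptor PD-1 of T cells, each at 10 µg/mL. Its design text names residual MC38 cells as the object of study.

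Each treatment had 1 library, so no test was possible, and every difference below is one between 2 libraries in which treatment, sorting and loading cannot be told apart. Cells of at least 5000 unique molecular identifiers (UMIs, counts of captured transcript molecules) and at most 10% mitochondrial UMIs were used: 2198 in IgG (median 20663 UMIs) and 3356 in aPD-1 (median 16577). These held 49422640 and 61462778 UMIs. The libraries shared 8 cell barcodes, where about 10.0 would be shared from the numbers of cells alone. Epithelial markers were close to absent in both libraries (11 genes summed to 0.627 CPM in the IgG library and 0.228 in aPD-1, CPM being counts per 1000000 UMIs), so the name tumour cell rests on the sort. Markers of other cell types differed: the 12 macrophage markers summed to 36.9 CPM in the IgG library and 9.75 in aPD-1, and the 10 endothelial markers to 58.6 and 20.7 CPM. The 10 fibroblast markers had the largest sum, at 987 and 664 CPM. Whether fibroblasts were among the cells used was not tested. The 12 T and NK cell genes summed to 1.54 and 1.64 CPM; of these Cd3e had 0 UMIs in both libraries, Cd3d 38 and 36, and Trac 18 and 39.

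Immunity-related GTPases are proteins that mouse cells make on exposure to interferons, and they are best known for defence against parasites and bacteria that live in vacuoles. Iigp1, Tgtp1 and Tgtp2 encode effectors that load onto such vacuoles and disrupt them. Irgm1, Irgm2 and Igtp (also called Irgm3) encode regulators that sit on the cell's own membranes and keep the effectors inactive there. In tumour cells their transcripts are commonly read as part of the interferon response.

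On GRCm38 (mm10), the GENCODE M21 models of all 6 genes were annotated as protein-coding. Irgm1 (chromosome 11, 48861968 to 48871683), Tgtp1 (48985327 to 48994172) and Tgtp2 (49057194 to 49064206) lie together on the minus strand. Igtp (58199556 to 58207591) and Irgm2 (58199618 to 58222782) lie further along chromosome 11 on the plus strand. Iigp1 lies on another chromosome. The gene models of Igtp and Irgm2 overlap on the same strand, with 162 exonic bases in common. Those of Tgtp1 and Gm12185, a gene outside the 6, do so as well, with 223 exonic bases in common. Reads from such shared bases may not be assignable to one gene. Tgtp1 and Tgtp2 are near-identical: of the 31-base words in the last 600 bases of the Tgtp1 transcripts, 81.2% also occurred in Tgtp2. Reads of the 3′ end may therefore not be assignable to one of the pair, and their separate counts are uncertain. Reads that fit both genes may also be missing from both counts, so the sum of the pair may be too low.

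The promoters were read for the short elements that interferon factors are known to bind, because the 6 genes were detected together in cells, as described further on. RefSeq windows on GRCm38.p6, 250 bases before to 50 after the start, were found for 5 of the 6 genes, Iigp1 not among them. Each of the 5 held GAAA in 2 copies with 2 bases between them, the repeat typical of the interferon-stimulated response element, searched on both strands and present in 3.44% of 32851 promoter windows. TTCNNNGAA, the palindrome typical of gamma-activated sequences, was in 4 of the 5 and in 8.30% of all windows. Both motifs were in the same window in 4 of the 5 and in 0.454% of all windows. A match is a description of letters and not a measured binding site. The 30 bases around the response element are shown 5′ to 3′ on each gene's strand, with both motifs in capitals, since they show how closely the genes resemble each other there.
Igtp: ctagccatTTCTAGGAActGAAACTGAAAg
Irgm2: ctagccatTTCCAGGAActGAAACTGAAAg
Tgtp1: ctagccatTTCCAGGAAtcGAAACTGAAAc
Tgtp2: ctagccatTTCCAGGAAtcGAAACCGAAAc
Irgm1: tagcctgtttcaaGAAATAGAAACCGAAAc

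The first of these stretches is at chr11:58199503-58199532 and begins 53 bases before the Igtp start. That of Irgm2 is at chr11:58214894-58214923, that of Tgtp1 at chr11:48992313-48992342, that of Tgtp2 at chr11:49064272-49064301 and that of Irgm1 at chr11:48871434-48871463. The starts used here are those of RefSeq. The stretches of Irgm2, Tgtp1 and Irgm1 lie inside the GENCODE spans given above, whose starts differ. Igtp and Irgm2 shared 29 of 30 bases, as did Tgtp1 and Tgtp2. Irgm1 shared 18 to 21 bases with the others, held 2 overlapping response-element matches and had no TTCNNNGAA match in its window.

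The effector Iigp1, which lies on chromosome 18 (60376027 to 60392634, plus strand), was the highest of the 6 in both libraries. The Tgtp pair was the lowest by counted UMIs, which may be too few for that pair, as said above. UMIs of 3′ libraries count transcript ends, so levels were not divided by length, and capture can differ between genes. Iigp1 was at 123 CPM in IgG (interval 120 to 127) and 109 CPM in aPD-1 (interval 107 to 112). The regulator Igtp was at 77.8 CPM in IgG (interval 75.3 to 80.3) and 85.3 CPM in aPD-1 (interval 83.0 to 87.7). Irgm1, the regulator needed for resistance to several vacuolar bacteria, was at 71.5 CPM in IgG (interval 69.1 to 73.9) and 69.6 CPM in aPD-1 (interval 67.6 to 71.8). Igtp and Irgm1 were therefore neighbours in the order, with intervals that touched in neither library. The other regulator, Irgm2, was far below them at 21.1 CPM in IgG (interval 19.9 to 22.4) and 20.1 CPM in aPD-1 (interval 19.02 to 21.28). The effector Tgtp2 was at 13.5 CPM in IgG (interval 12.5 to 14.6) and 9.06 CPM in aPD-1 (interval 8.33 to 9.85). Tgtp1 was at 4.17 CPM in IgG (interval 3.62 to 4.78) and 3.29 CPM in aPD-1 (interval 2.85 to 3.77). The order of the 6 genes was the same in both libraries. All intervals here are exact 95% intervals and cover counting error only.

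**Figure D1:**
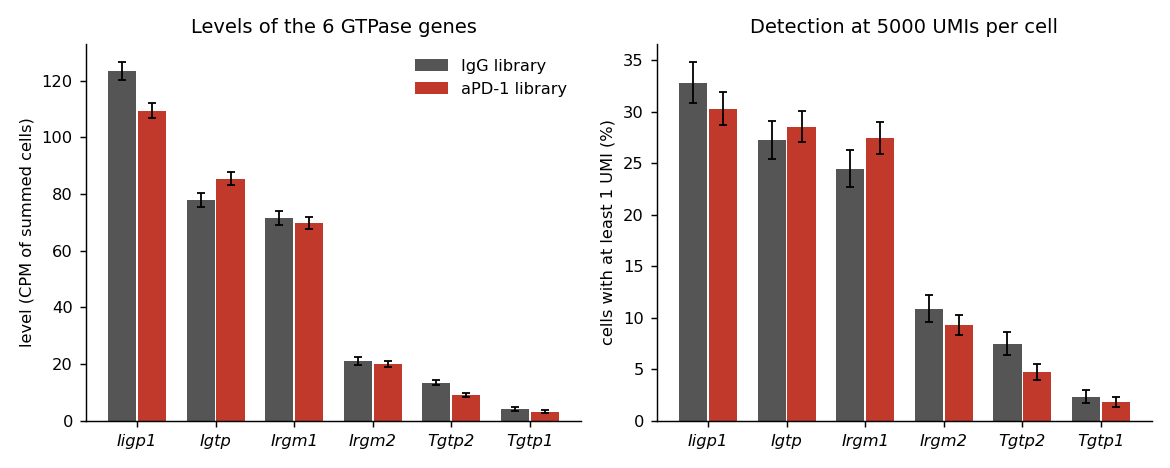
Left, level of each gene in CPM of the summed cells of the IgG and aPD-1 libraries, with exact Poisson 95% intervals; right, percent of cells with at least 1 UMI after every cell was thinned to 5000 UMIs, with exact binomial intervals. Iigp1, Igtp and Irgm1 stand at 69.6 CPM or more in both libraries and Tgtp1 at 4.17 CPM or less.

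To compare detection at equal depth, each cell was thinned at random to 5000 UMIs. At least 1 UMI of the 6 genes was then found in 60.0% of the IgG cells (57.9 to 62.0%) and in 57.3% with aPD-1 (55.6 to 59.0%). Iigp1 was found in 32.8% of the IgG cells and 30.3% with aPD-1, Igtp in 27.3% and 28.6%, and Irgm1 in 24.5% and 27.4%, with intervals that overlap between the libraries for each. Irgm2 was found in 10.9% and 9.27% of cells and Tgtp1 in 2.27% and 1.79%, again with overlapping intervals. Tgtp2 was the exception, at 7.46% in IgG (6.40 to 8.64%) and 4.71% in aPD-1 (4.02 to 5.48%). Without thinning, 87.0% of the IgG cells and 82.7% with aPD-1 held a UMI of the 6, at median depths that differ as given above.

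Free RNA carried these transcripts too. In the aPD-1 matrix, barcodes under 100 UMIs held the 6 genes at 247 CPM in sum, beside 297 CPM in the cells, with Iigp1 at 83.4 CPM, Igtp at 77.2 CPM and Irgm1 at 61.6 CPM. The IgG matrix holds called cells only, so its free RNA was not analysed here. Barcodes with markers of other cell types held these transcripts as well. Shallow IgG barcodes (500 to under 5000 UMIs) with at least 3 macrophage marker UMIs had 185 CPM in sum (58 UMIs, median depth 902). The 261 IgG and 248 aPD-1 cells used with 3 or more UMIs of another cell type's markers had 280 and 288 CPM. Those markers were of macrophages, endothelial, T, NK, B and dendritic cells and neutrophils, and not of fibroblasts. These 261 and 248 cells were not split by type. A single UMI in a cell therefore cannot be read as expression by that cell. Levels did range below that of free RNA, to 63.8 CPM for the 6 genes in the aPD-1 cells lowest in interferon-gamma target genes.

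The level of the 6 genes was uneven across cells. Unthinned, the cells held a median of 4 UMIs of the 6 in IgG and 3 in aPD-1, with a maximum of 92 and 89 UMIs in 1 cell. For Iigp1 alone the maximum was 54 UMIs in IgG and 49 in aPD-1, beside medians of 1. At 5000 UMIs per cell the variance of Iigp1 was 3.15 times its mean in IgG and 2.53 times in aPD-1, where counting error alone gives a ratio of 1. Igtp had ratios of 1.65 and 1.82, Irgm1 1.69 and 1.38, and Irgm2, Tgtp1 and Tgtp2 between 1.01 and 1.16. This ratio lies near 1 for scarce genes whatever their spread, so it does not rank the genes by unevenness. The mean was 0.722 thinned UMIs per cell in IgG and 0.589 in aPD-1 for Iigp1, but 0.024 and 0.018 for Tgtp1. The tenth of cells richest in Iigp1 held 60.2% of its thinned UMIs in IgG and 59.4% in aPD-1.

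The genes were found in the same cells more often than independent detection would give. At 5000 UMIs, 3 or more of the 6 were detected in 11.8% of IgG cells, where independence would give 6.04%, and in 11.6% of aPD-1 cells, where it would give 5.34%. Cells with 4 or more made up 3.87% of IgG (independence 0.637%) and 2.80% of aPD-1 (independence 0.481%). Cells with none were also in excess, at 40.0% in IgG beside 29.7% and at 42.7% in aPD-1 beside 30.7%. All 6 were detected in 1 IgG cell and no aPD-1 cell.

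**Figure D2:**
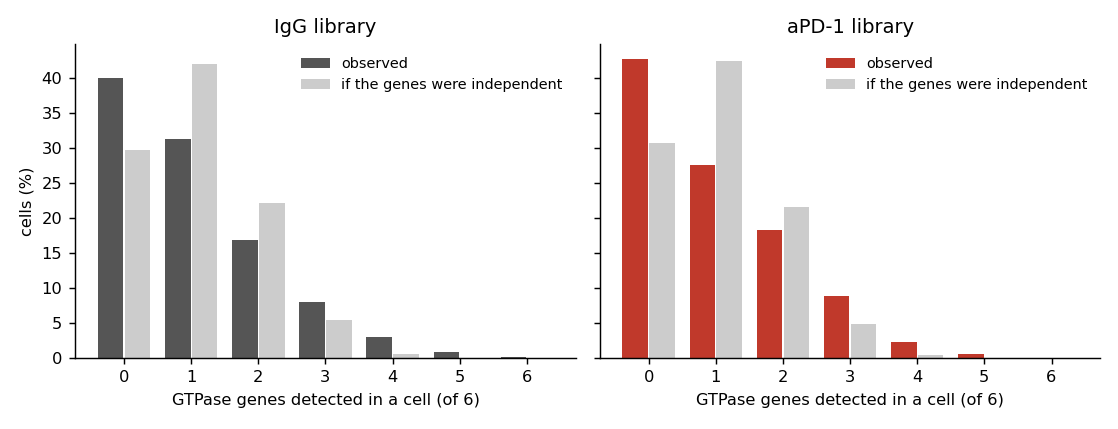
Percent of cells by the number of the 6 genes detected after thinning to 5000 UMIs, beside the percent that the single detection shares would give if the genes were independent. Cells with none and cells with 3 or more exceed the grey bars in both libraries, while cells with 1 or 2 fall short of them.

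Pairwise, the effector Iigp1 went most closely with the regulators Igtp and Irgm1. Over cells, on log2(thinned UMIs + 1), Pearson's r of Iigp1 with Igtp was 0.35 in IgG (Spearman's rho 0.28, 2198 cells) and 0.36 in aPD-1 (rho 0.32, 3356 cells). Iigp1 with Irgm1 was at 0.34 in IgG and 0.32 in aPD-1, and Igtp with Irgm1 at 0.22 and 0.24. Both Iigp1 and Igtp were detected in 13.9% of IgG cells (8.95% if independent) and 14.3% of aPD-1 cells (8.66% if independent). Joint detection divided by that expected if independent gave another order. Tgtp1 with Tgtp2 was highest by it, at 4.02 in IgG and 2.83 in aPD-1, but both were detected in only 0.682% and 0.238% of cells. Iigp1 with Igtp was at 1.55 and 1.65, and Iigp1 with Irgm1 at 1.49 and 1.57. By r the lowest pair was Irgm2 with Tgtp1, at 0.02 in IgG and 0.05 in aPD-1. Against the sum of the other 5 genes, Iigp1 was at 0.44 in IgG and 0.45 in aPD-1, Igtp at 0.36 and 0.39, and Irgm1 at 0.35 in both. Tgtp1 was at 0.20 and 0.16 and Tgtp2 at 0.22 and 0.17. The median of the 15 pairs was 0.18 in IgG and 0.14 in aPD-1. The cells of a library share its free RNA, and sparse counts hold these values of r down, so the weak ones are no finding. The order of the pairs by r is therefore not free of abundance. Deeper cells gave higher values: in cells thinned to 10000 UMIs the medians were 0.25 and 0.22.

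**Figure D3:**
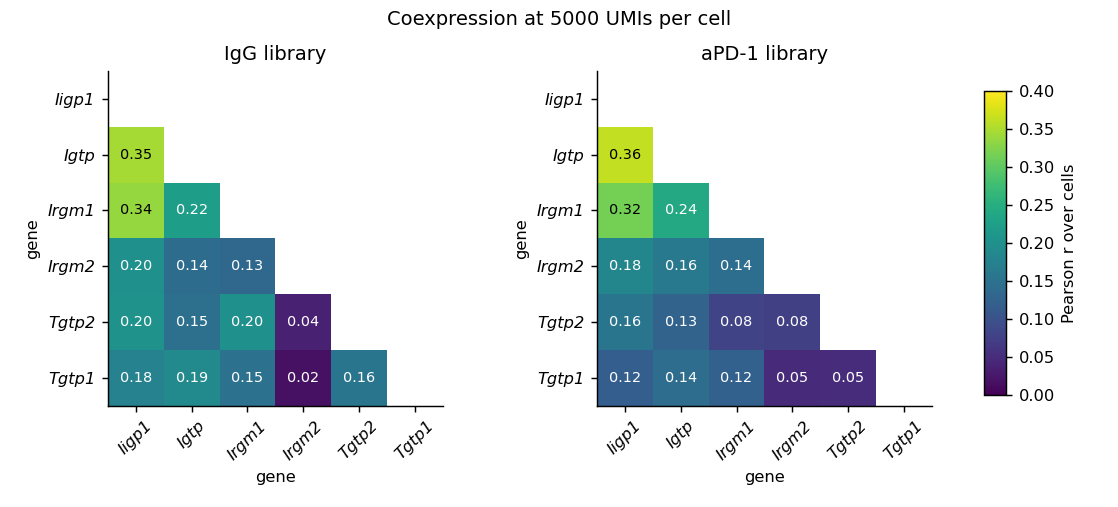
Pearson's r over cells for each pair of the 6 genes, on log2(UMIs + 1) after thinning to 5000 UMIs, in the IgG library (left) and the aPD-1 library (right). In both panels the brightest cells are Iigp1 with Igtp and Iigp1 with Irgm1, and pairs with Tgtp1 or Tgtp2 lie between 0.02 and 0.20.

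Other interferon response genes had the most similar pattern across cells. Of 6633 genes detected in at least 5% of thinned cells of each library, the 10 with the highest r to the sum of the 6, by the smaller of the 2 libraries, included Cxcl10, Gbp2, Isg15, Ifi47, Ifit3, Cxcl9, Irf1, Gm4951 and Ifit1. The chemokine gene Cxcl10 was at an r of 0.42 in IgG and 0.44 in aPD-1, and the guanylate-binding protein gene Gbp2 at 0.40 and 0.44. Ifi47, another immunity-related GTPase, was at 0.37 and 0.33, and Irf1, an interferon-induced transcription factor, at 0.32 in both. The median gene was at 0.01 in both libraries. These coefficients are over cells of 1 library each and carry no test.

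The 6 genes followed both arms of the interferon response. Cells were ranged by their summed thinned UMIs over 25 listed type I interferon-stimulated genes (such as Ifit1, Rsad2 and Mx1) and, separately, over 24 interferon-gamma targets (such as Gbp2, Cxcl9 and Psmb8); none of the 6 was on either list. From 0 to 4 to at least 20 type I UMIs, the sum of the 6 went from 126 to 674 CPM in IgG (5.33-fold, interval 5.04 to 5.63) and from 113 to 775 CPM in aPD-1 (6.87-fold, interval 6.55 to 7.21). Along the interferon-gamma targets it went from 96.6 to 641 CPM in IgG (6.64-fold, interval 5.95 to 7.42) and from 63.8 to 640 CPM in aPD-1 (10.0-fold, interval 9.15 to 11.0). These ranges are cuts of a continuous sum and not cell types: 211 IgG and 315 aPD-1 cells lay at 9 or 10 type I UMIs, next to a cut.

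The effector Iigp1 spanned a wider range than the regulators Igtp and Irgm1 in aPD-1. In aPD-1 it went from 15.0 to 257 CPM along the interferon-gamma targets (17.1-fold, interval 14.2 to 20.9), and in IgG from 34.8 to 277 CPM (7.97-fold, interval 6.65 to 9.63). Igtp went 10.7-fold in aPD-1 (interval 8.93 to 12.8) and 6.94-fold in IgG (interval 5.53 to 8.83), so in IgG its interval overlapped that of Iigp1. Irgm1 went from 23.9 to 134 CPM in aPD-1 (5.61-fold, interval 4.81 to 6.57) and from 23.3 to 138 CPM in IgG (5.94-fold, interval 4.76 to 7.51). Irgm1 was thus above Iigp1 in the lowest aPD-1 cells and below it in the highest. The lower end rests on 173 IgG and 420 aPD-1 cells.

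**Figure D4:**
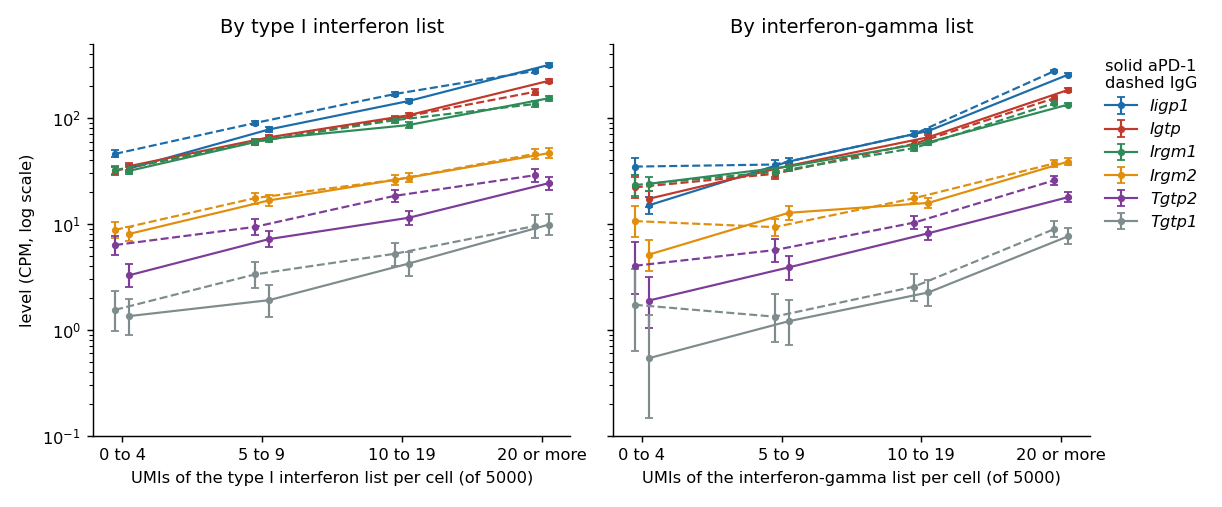
Level of each gene (CPM, log scale, exact Poisson 95% intervals) in cells ranged by their thinned UMIs of the type I interferon list (left) or the interferon-gamma list (right); solid lines are aPD-1 and dashed lines IgG. The top range is above the lowest one for all 6 genes in both libraries, and Iigp1 in aPD-1 runs from 15.0 to 257 CPM in the right panel.

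The lists overlap in the cells they mark, so they were also crossed. In IgG the sum of the 6 was at 95.7 CPM in the 568 cells under 10 UMIs of both lists, 257 CPM in the 666 cells with 10 or more interferon-gamma target UMIs alone, 193 CPM in the 122 cells with 10 or more type I UMIs alone and 543 CPM in the 842 cells with 10 or more of both. In aPD-1 the same levels were 90.1 CPM, 246 CPM, 203 CPM and 571 CPM. Cells high in one list had higher levels at either level of the other list, in both libraries. Iigp1 in aPD-1 was at 24.9 CPM with neither, 82.7 CPM with interferon-gamma targets alone, 68.1 CPM with type I genes alone and 228 CPM with both.

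By r, cell cycle lists showed little relation to the 6 genes, at −0.02 to 0.00 for the G2/M and S phase lists in both libraries. Levels by range did vary. At 0 to 4, 5 to 9 and 10 to 19 S phase UMIs the sum was at 340, 284 and 257 CPM in IgG. In aPD-1 it was at 318, 257 and 308 CPM. At 20 or more it was at 258 and 532 CPM, on 22 IgG and 6 aPD-1 cells. At 0 to 4, 5 to 9, 10 to 19 and 20 or more G2/M UMIs it was at 331, 286, 256 and 401 CPM in IgG. The same G2/M ranges had 305, 271, 306 and 313 CPM in aPD-1. With 14 hypoxia genes r was −0.06 in IgG and −0.09 in aPD-1. In aPD-1 the sum of the 6 went from 351 CPM at 0 to 4 hypoxia UMIs to 233 CPM at 20 or more, and in IgG from 311 to 274 CPM. Cells high in Gsn, Lbp, Dpt, Dcn and Col3a1, 5 genes that mark a fibroblast-like group in these data and were picked with those data known (all 5 of them lower in aPD-1, at a median log2 ratio of −1.30), had more of the GTPase transcripts. From 0 to 4 to at least 20 UMIs of those 5, the sum went from 273 to 507 CPM in IgG (1.86-fold, interval 1.73 to 1.99) and from 264 to 654 CPM in aPD-1 (2.48-fold, interval 2.26 to 2.71).

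Between the libraries the 6 genes differed little, and not in one direction. Of the 6, 5 reached the mean of 10 CPM asked for a call, and Tgtp1 did not. By a size rule (a ratio of at most 0.8 or at least its reciprocal, with an interval without 1, here called the 0.8 rule), 1 member was lower in aPD-1 and 0 were higher. Over all 6967 genes of at least 10 CPM the same rule called 17.2% lower and 3.9% higher, so 1 of 5 is near the background. By a 2-fold rule with an interval beyond 1.5-fold no member was called, where 0.316% of genes were lower and 0.0718% higher. The one called was Tgtp2, at a ratio of 0.670 (interval 0.598 to 0.751), which 3.27% of the 6967 genes lay below. Tgtp2 passed the mean of 10 CPM only through the IgG library, being at 13.5 CPM there and 9.06 CPM in aPD-1. Tgtp1 was at 0.788 (interval 0.646 to 0.962). The sum of the 2, which does not depend on how counted reads were split between them, was at 0.698 (interval 0.633 to 0.771). Any reads counted for neither gene are missing from this sum too.

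Of the abundant members, the effector Iigp1 was lower in aPD-1 and the regulator Igtp higher. Iigp1 was at a ratio of 0.886 (interval 0.856 to 0.918) and Igtp at 1.10 (interval 1.05 to 1.14), both inside the bounds of the 0.8 rule. Irgm1 was at 0.974 (interval 0.931 to 1.02) and Irgm2 at 0.953 (interval 0.877 to 1.04), with intervals that include 1. The sum of the 6 was at 311 CPM in the IgG library and 297 in aPD-1, a ratio of 0.953 (interval 0.933 to 0.974) or a log2 ratio of −0.07. Over the 6967 genes the log2 ratio had a median of −0.10. The ribosomal share of UMIs was 34.4% in the IgG library and 38.1% in aPD-1. With the median of all genes set to 0 the sum was at 0.032, which turned its direction, Irgm1 was at 0.064 and Irgm2 at 0.032, both again with intervals that include no difference, and the 0.8 rule called 580 genes higher and 649 lower in place of 272 and 1200. Igtp stayed higher, and Iigp1 and Tgtp2 lower, under each scaling tried. Tgtp1 was then at −0.24 with an interval of −0.53 to 0.046, which includes no difference.

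The ratio of the sum lay on both sides of 1 within each of the 6 lists by which cells were ranged. Along the type I list it went from 0.892 (interval 0.839 to 0.949) at 0 to 4 UMIs to 1.15 (interval 1.107 to 1.196) at 20 or more. Along the interferon-gamma targets it was 0.660 (interval 0.572 to 0.761) at 0 to 4 UMIs, 1.12 at 5 to 9, 1.08 at 10 to 19 and 0.997 at 20 or more. Along the hypoxia list it went from 1.13 (interval 1.08 to 1.18) at 0 to 4 UMIs to 0.851 (interval 0.793 to 0.913) at 20 or more. The differences between ranges were not tested. IgG held more cells rich in the Gsn, Lbp, Dpt, Dcn and Col3a1 sum, with 10 or more of those UMIs in 15.5% of its cells and 8.43% of aPD-1 cells. Within 10 to 19 such UMIs (256 IgG and 225 aPD-1 cells) Igtp was at 89.8 CPM in the IgG library and 133 in aPD-1, a ratio of 1.49 (interval 1.31 to 1.69). Igtp was the 1 of 5 tested members called higher there and 0 were lower, where 4.71% of genes were called higher and 11% lower. Within 20 or more (84 and 58 cells) Igtp was at 119 and 187 CPM, a ratio of 1.56 (interval above 1 and up to 1.95). Igtp and Irgm1 (109 and 155 CPM) were the 2 of 5 called higher there and 0 were lower, where 5.66% of genes were called higher and 6.48% lower. In the 1471 IgG and 2625 aPD-1 cells with 0 to 4 UMIs, Igtp was at 70.2 and 77.9 CPM (ratio 1.11, interval 1.05 to 1.17). None of the 4 members tested at 0 to 4 UMIs was called, where 3.75% of genes were higher and 17.1% lower. Tgtp1 and Tgtp2 were not tested in that range, as their means were under 10 CPM. Tgtp2 had a ratio of 0.627 (interval 0.544 to 0.723) there. None of 5 was called at 5 to 9 UMIs, where 4.91% were higher and 14.1% lower. The sum of the 6 had ratios of 0.967 (interval 0.941 to 0.993), 1.05 (interval 0.995 to 1.10), 1.21 (interval 1.13 to 1.29) and 1.29 (interval 1.15 to 1.44) from the lowest to the highest range, so its direction in all cells is not that of the upper ranges.

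Tgtp2 was set out over the same ranges. With 0 to 4 UMIs it was at 12.0 CPM in the IgG library and 7.55 in aPD-1 (ratio 0.627, interval 0.544 to 0.723). At 10 to 19 UMIs it was at 18.6 and 19.8 CPM (ratio 1.07, interval 0.775 to 1.46). The intervals at 0 to 4 and at 10 to 19 UMIs do not overlap. At 5 to 9 UMIs the ratio was 0.854 (interval 0.646 to 1.13), and at 20 or more it was 1.06 (interval 0.553 to 1.94). Both of these overlap the interval at 0 to 4 UMIs, and the difference between ranges was not tested. Along the interferon-gamma targets Tgtp2 had ratios below 1 in all 4 ranges, from 0.470 to 0.793, and along the type I list from 0.518 to 0.842. The interval included 1 in the lowest interferon-gamma range and the highest type I range. Macrophage, endothelial and fibroblast markers were higher in IgG, as given above. Without the cells holding 3 or more UMIs of another cell type's markers, fibroblast markers not among them, the log2 ratio of Tgtp2 was −0.60 in place of −0.58. What part cells of other types have in the Tgtp2 difference was not tested.

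**Figure D5:**
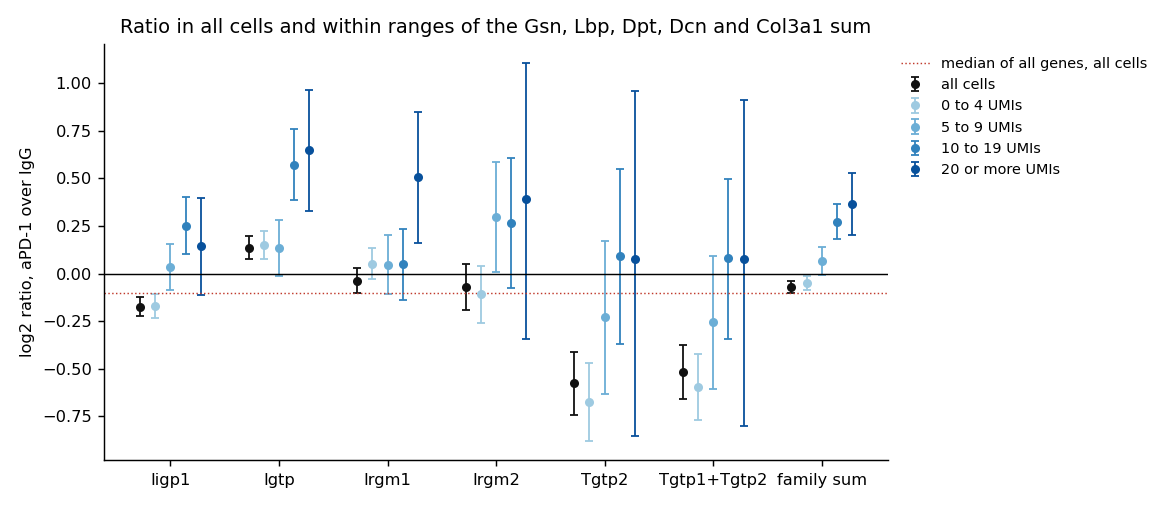
Log2 ratio of aPD-1 over IgG with exact 95% counting intervals for 5 genes, the Tgtp1 and Tgtp2 sum and the family sum, in all cells (black) and in cells ranged by their thinned UMIs of Gsn, Lbp, Dpt, Dcn and Col3a1 (blue, darker with more UMIs). The dotted line is the median of all genes. Igtp and the family sum lie higher in the darker points, and the Tgtp2 points below 0 are those of all cells and the lighter ranges.

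Other genes of the system were set beside the 6, and each count below is to be read against the 3.9% of all tested genes called higher, the 17.2% called lower and their median log2 ratio of −0.10. Of the other immunity-related GTPases, 3 of 9 matched genes reached 10 CPM. Ifi47, another interferon-induced GTPase, was at 79.0 CPM in the IgG library and 63.0 in aPD-1 (ratio 0.798, interval 0.763 to 0.834) and was called lower. Gm4951 was at 26.3 and 24.3 CPM and 9930111J21Rik2 at 10.1 and 10.8 CPM, neither called. The guanylate-binding proteins, large GTPases that act on the same vacuoles, had 6 of 10 matched genes at 10 CPM or more, with 1 higher, 0 lower and a median log2 ratio of −0.02, where all genes had −0.10. Gbp2 was at 188 and 182 CPM, and Gbp4, the one called, at 20.8 and 28.7 CPM.

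Upstream of the GTPases, 17 of 20 receptor and signalling genes were tested, with 1 higher, 3 lower and a median log2 ratio of −0.17, where 17.2% of all genes were lower, so the count is near the background. The receptor subunit Ifngr1 was at 50.2 CPM in the IgG library and 32.8 in aPD-1, and the feedback inhibitor Socs1 at 47.7 and 78.7 CPM. The activator Irf1 (ratio 0.886) was not called. Of 18 genes of the autophagy and ubiquitin machinery that controls GTPase loading, 13 were tested, with 0 higher and 4 lower, beside 3.9% and 17.2% of all genes. Among the lowest ratios was that of the ubiquitin gene Ubb (1879 and 1337 CPM). The highest were those of Atg16l1, part of the lipid conjugation complex (17.3 and 18.7 CPM), and Gabarapl1, a conjugated membrane protein (33.0 and 34.4 CPM), neither called. Of the 19 interferon-gamma targets tested 2 were higher and 2 lower, and of the 21 type I genes 2 were higher and 3 lower. Neither list's share of lower genes was above the 17.2% of all genes. Both shares of higher genes were above the 3.9% of all genes, on 2 genes each. The 2 higher interferon-gamma targets were Gbp4 and Socs1, already counted in the guanylate-binding and signalling lists. Among the interferon-gamma targets tested the chemokine gene Cxcl9 had the lowest ratio, at 97.6 and 62.1 CPM. Class I antigen presentation, also induced by interferon, had 14 of 17 genes tested, with 0 higher, 8 lower and a median log2 ratio of −0.36, where 17.2% of all genes were lower and their median was −0.10. In it Tap2, a peptide transporter subunit, was at 69.6 and 42.8 CPM, and H2-T22, a class I-like molecule, at 234 and 277 CPM and not called.

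Interferon-gamma itself was not seen in the cells used. Ifng had 0 UMIs in 2198 IgG cells, which allows a share of up to 0.136% of cells with a UMI, and 0 in 3356 aPD-1 cells, which allows up to 0.0894%.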

How the data were processed

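Counts of UMIs per gene and barcode were deposited by the authors without normalisation, and the file headers name Cell Ranger 3.0.2. The submitters' processing notes also name Seurat 2.1.0 and mm10; which gene annotation was counted is not stated there. The IgG matrix held 4351 called barcodes and the aPD-1 matrix all 737280. Cells of at least 5000 UMIs with at most 10% UMIs from 13 mitochondrial genes were kept, no doublets were removed and no clustering was used. CPM was computed from UMIs summed over cells, ratios without a pseudocount carried exact conditional binomial 95% intervals, levels exact Poisson and shares exact Clopper-Pearson intervals. Thinning drew 5000 UMIs per cell without replacement with numpy 2.4.6 (scipy 1.17.1, pandas 2.3.3, matplotlib 3.10.9). The genes named are the 6 members, the 10 most alike across cells, and genes of at least 10 CPM from pathway lists: any of the GTPase, guanylate-binding and signalling lists, and up to 4 extreme ratios of the others; some genes that this rule names are not reported here. Members and lists were chosen with earlier results of these data known. Of the listed symbols, Gm12250, Gbp11 and Mx2 did not match, and Gbp6 matched 2 rows. On simulated counts for this comparison over 6967 genes, the 0.8 rule called all 50 genes made 1.5-fold higher, 44 of 50 made 1.5-fold lower and 0 of 6767 unchanged ones. Both simulated libraries were Poisson draws from the same mean profile, with no variation between libraries or cells. The simulation therefore covers counting error only and gives no rate of false calls between real libraries. Alternatives were other UMI and mitochondrial limits, scalings, weights, cell exclusions, a pseudocount and other thinning depths.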

Additional observations from a re-analysis of the deposited data

Results flagged for a closer look

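UMIs of the 6 GTPase genes in sum were also found in barcodes outside the cells compared, though not of each gene in each set: Tgtp1 had 0 UMIs in both sets of macrophage-marked barcodes, and Irgm2 and Tgtp2 had 0 in that of aPD-1. Barcodes under 100 UMIs in the aPD-1 matrix had them at 247 CPM in sum, from 1046 UMIs. Barcodes of at least 5000 UMIs with over 10% mitochondrial UMIs had 356 CPM in IgG (89 barcodes, 284 UMIs) and 351 CPM in aPD-1 (81 barcodes, 210 UMIs), beside 311 and 297 CPM in the cells used. In aPD-1 these barcodes had Igtp at 144 CPM (86 UMIs), where the cells used had 85.3 CPM. Shallow barcodes of 500 to under 5000 UMIs with at least 3 macrophage marker UMIs had 185 CPM in IgG (315 barcodes, 58 UMIs) and 241 CPM in aPD-1 (54 barcodes, 9 UMIs).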

How the results depend on the processing

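The log2 ratio of the summed GTPases was −0.07. It turned to 0.032 with the median log2 ratio of all genes set to 0 and to 0.033 with the total taken without ribosomal protein and mitochondrial genes, and moved to −0.11 with each cell thinned to 5000 UMIs; it stayed inside its interval in the other 7 of 10 alternatives. Over its 10 alternatives Igtp lay between 0.11 and 0.24, Tgtp2 between −0.71 and −0.47, Tgtp1 between −0.39 and −0.24 and Iigp1 between −0.29 and −0.07. Irgm1 (−0.10 to 0.07) and Irgm2 (−0.22 to 0.03), whose intervals include a ratio of 1, went both ways; with at most 5% mitochondrial UMIs both were lower with intervals that exclude it (−0.17 to −0.027 and −0.28 to −0.019). The interval of Tgtp1 took in no difference under both rescalings and under thinning. Iigp1 in addition moved from −0.17 by over 1.5 times when cells were thinned (−0.29) and when rescaled (−0.07); the cause was not tested. The 0.8 rule called 272 genes higher and 1200 lower; setting the median to 0 gave 580 and 649, leaving ribosomal and mitochondrial genes out of the total gave 716 and 819 among 8310 genes past the filter instead of 6967, and no filter on low values gave 615 and 2969. The 2-fold rule called 5 higher and 22 lower; without ribosomal and mitochondrial genes 11 were higher, and without the filter 41 were higher and 452 lower. The share of cells with a UMI of the 6 was 60.0% in IgG and 57.3% in aPD-1, against 87.0% and 82.7% without thinning and 74.6% and 72.2% in cells of at least 10000 UMIs thinned to 10000. The median r of the 15 pairs was 0.18 and 0.14, against 0.36 and 0.29 without thinning and 0.25 and 0.22 at 10000 UMIs. Both measures move with depth by construction. No paired analysis was possible because each treatment had 1 library. Tgtp1 and Tgtp2 share most of their 3′ sequence, and depth limits both in single cells.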

Other observations

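Transcripts of interferon-beta, chosen for a look after their values were seen, were few and concentrated. Ifnb1 had 11 UMIs in 5 of the IgG cells used and 71 UMIs in 12 of the aPD-1 cells, of which 51 were in 1 cell. Ifng, the gene of interferon-gamma, was at 0 in the cells used, but the aPD-1 matrix held 15 UMIs of it in 13 barcodes, 6 of them under 100 UMIs and 7 from 100 to under 5000 UMIs. The IgG matrix, which holds called cells only, had 0 Ifng UMIs.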
